A study of Mus musculus with 12 samples.

Results

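The genes described here are 5 members of the CCN family (Ccn1, Ccn2, Ccn3, Ccn4 and Ccn5), the YAP target genes Ankrd1 and Amotl2, and the co-activator genes Yap1 and Wwtr1. They were chosen by gene symbol, 9 of the 55573 genes in the deposited count table, and all 9 were among the 13836 genes that passed the filter on low counts. The list was drawn up with the data known, since Ccn5 was selected on its rise under the combined treatment, where its fitted log2 fold change ranked 22 among all genes tested. The values of Ccn5 in any comparison with DMSO or with the combination are therefore given as a description without a test, and counts of genes that passed a test cover the other 8 genes.

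RNA-sequencing was performed on tumourspheres of 3 mouse spindloid mammary tumour lines, A1005, A1129 and A1471. All 12 libraries share the genotype MMTV-Metmt;Trp53fl/+;Cre, in which the mammary tumour virus promoter drives an activated Met receptor and Cre removes a conditional allele of Trp53. The 24 h treatments were DMSO as vehicle, Crizotinib to inhibit the Met kinase, PD173074 to inhibit the kinases of the FGF receptors, and both agents at once (the combination), so each treatment had n = 3 libraries, 1 from each line. Each line comes from a single tumour and stands for that tumour only, and the spheres grew in serum-free medium with added growth factors, EGF and basic FGF among them. The mesenchymal marker Vim lay between 2615 and 2889.8 CPM (counts scaled to the library size by TMM) on average in the 4 treatments, whereas Krt5 had 0 counts in every library. The mesenchymal marker Cdh2 was near 0, at 0.151 CPM or less on average. Of the other epithelial markers, Epcam averaged at most 1.06 CPM, Krt8 7.06 to 12.8 CPM and Krt18 9.75 to 27.0 CPM, and the epithelial list summed to at most 52.2 CPM. Total counts ran from 13031492 to 17750476 per library. The ERK pathway readouts Dusp6, Spry4 and Etv5 had log2 fold changes of -5.03, -5.98 and -4.99 in the combination against DMSO. All passed the test, beside 14.4% of all genes in the unpaired edgeR fit. They belong to a longer list of ERK targets, whose other genes were also lower in each line. Phlda1 and Egr1 fell less, by -0.36, -1.07 and -0.48 and by -0.50, -2.45 and -0.74 in A1005, A1129 and A1471. With PD173074 Egr1 averaged 74.9 CPM, against 21.1 with DMSO.

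CCN proteins are secreted, cysteine-rich matricellular proteins that bind integrins, growth factors and matrix components. YAP, the product of Yap1, and TAZ, the product of Wwtr1, are transcriptional co-activators that act mainly through TEAD factors and are restrained by the Hippo kinases. Ccn1 and Ccn2 are the targets most often used to read YAP and TAZ activity, and serum, matrix stiffness and spread cell shape are known to raise them, whereas Ccn5 lacks the carboxy-terminal cysteine-knot domain of the other CCN proteins and is known from oestrogen and Wnt responses.

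Sequence is shown for the promoters because Ccn5 is to be compared with genes that respond through TEAD, and TEAD factors bind the letters GGAATG on either strand. The letters and their reverse complement CATTCC were searched in the 250 bases before each gene start in the RefSeq promoter table (build GRCm38.p6). Of the 9 genes, 5 matched an entry of that table, namely Ccn1, Ankrd1, Amotl2, Yap1 and Wwtr1, and all 5 held a match. Ccn2, Ccn3, Ccn4 and Ccn5 matched no entry, so their promoters were not searched and cannot be compared with these. Of the 27025 genes in the table, 14.4% held a match in at least 1 window, and 1.02% of all 32851 windows held 2 or more matches, as Ankrd1 did. The Ccn1 promoter, at chr3:145649986-145650235 on the minus strand, is printed whole because Ccn1 is the reference target, with its match in capitals.
Ccn1: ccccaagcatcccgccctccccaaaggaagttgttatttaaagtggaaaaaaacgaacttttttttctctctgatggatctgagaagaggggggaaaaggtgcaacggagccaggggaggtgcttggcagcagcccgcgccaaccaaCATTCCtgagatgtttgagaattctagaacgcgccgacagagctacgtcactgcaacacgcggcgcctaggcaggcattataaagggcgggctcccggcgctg

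For the other 4 genes, 30 bases around each match are shown on the strand of the gene, with the match in capitals, so that the flanks can be compared. The Ankrd1 matches lay 210 and 123 bases before the RefSeq start, at chr19:36120037-36120066 and chr19:36119950-36119979 on the minus strand. The Amotl2 match lay 65 bases before the start at chr9:102717727-102717756 on the plus strand. The Yap1 match was at chr9:8004720-8004749 and that of Wwtr1 at chr3:57576029-57576058, both on the minus strand. The Ankrd1 and Amotl2 matches lie inside the span that GENCODE gives these genes. A match is only a run of letters, and binding was not measured.
Ankrd1 distal: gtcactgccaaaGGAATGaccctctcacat
Ankrd1 proximal: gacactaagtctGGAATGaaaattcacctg
Amotl2: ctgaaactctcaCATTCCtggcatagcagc
Yap1: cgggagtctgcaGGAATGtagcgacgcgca
Wwtr1: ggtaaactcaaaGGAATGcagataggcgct

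The combination raised Amotl2 and lowered Wwtr1, left the fitted change of Yap1 at 0.00 on the log2 scale, and was accompanied by a very large rise of Ccn5 from almost no counts. Ccn1 and Ccn2 were higher on average by log2 values of 0.70 and 1.16, far less than Ccn5 at 6.29, and neither passed the unpaired test. Of the 8 genes tested, 2 passed in the combination against DMSO (1 up and 1 down), beside a background of 14.4% of all genes tested. When the cell line was fitted as a block, so that libraries of the same line were compared, 5 of the 8 passed (3 up and 2 down) beside a background of 54.8%. Ccn2 was among these 5 (edgeR adjusted p = 9.23e-04) and Ccn1 was not (edgeR adjusted p = 0.194). Whether a level reflects fewer cells of a type or less RNA per cell cannot be told apart in bulk tumourspheres.

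**Figure D1:**
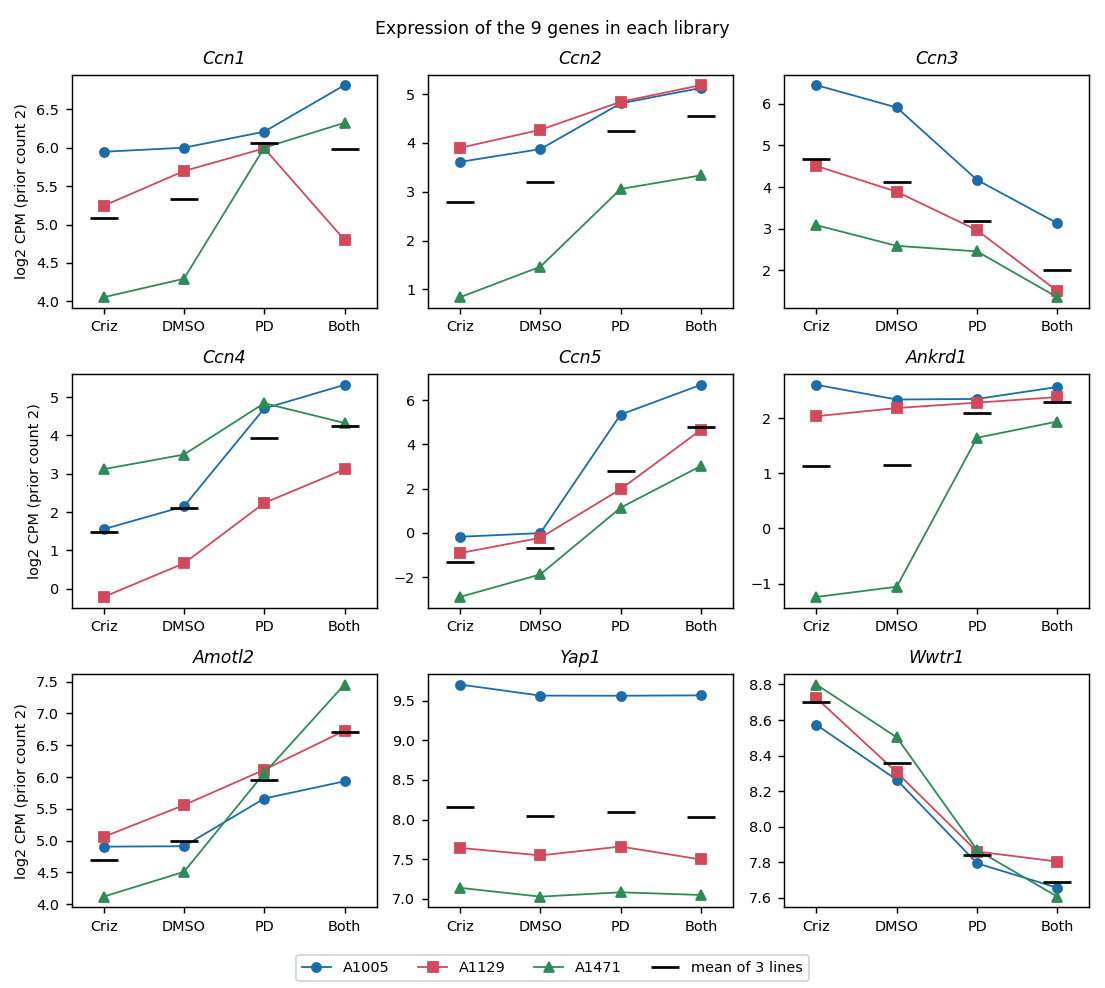
Each panel plots log2 CPM (prior count 2) of a gene against treatment, ordered from left to right as Crizotinib (Criz), DMSO, PD173074 (PD) and the combination (Both), with 1 point for each library, lines joining libraries of the same tumour line and a black dash for the mean of the 3 lines. In this order Ccn5 and Amotl2 rise and Wwtr1 falls from left to right in every line, Yap1 differs between lines at every treatment, and Ccn1 in A1129 drops in the combination.

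Yap1 (chromosome 9, 7931999 to 8004596 of mm10, minus strand) encodes the co-activator YAP. Its DMSO libraries held 758, 187 and 130 CPM in A1005, A1129 and A1471. The combination libraries held 760, 180 and 132 CPM in the same order. Within each line the values of Yap1 barely moved with treatment, while A1005 stood several-fold above the other lines throughout. The fitted log2 change in the combination was 0.00 with a standard error of 1.01 without the block, and -0.01 with a standard error of 0.08 with it (edgeR adjusted p = 0.934).

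Wwtr1 (chromosome 3, 57455649 to 57575910, minus strand) encodes TAZ, the partner of YAP with much the same function. It was present at 307, 316 and 363 CPM with DMSO in A1005, A1129 and A1471. With the combination it was at 202, 223 and 195 CPM. The groups did not overlap, every combination library being below every DMSO library. The log2 fold change of Wwtr1 was -0.67 with a standard error of 0.12 (edgeR quasi-likelihood test, Benjamini-Hochberg adjusted p = 0.00701).

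With PD173074 alone Wwtr1 was at 222, 232 and 234 CPM in A1005, A1129 and A1471. With Crizotinib alone it was at 381, 423 and 446 CPM. The order of Wwtr1 in every line was therefore Crizotinib, DMSO, PD173074 and the combination, with no overlap between neighbouring treatments except PD173074 and the combination. The rise with Crizotinib, 0.34 on the log2 scale, had an unadjusted p of 0.02 and did not pass the adjustment (edgeR adjusted p = 1 with and without the block). The fall with PD173074 was -0.52 (unpaired edgeR, adjusted p = 1) and passed once the line was a block (edgeR adjusted p = 0.0208). Both comparisons share the DMSO libraries.

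Per kilobase of exon, Wwtr1 was the most abundant of the 9 genes with DMSO on average, at 68.8 ± 6.22 CPM per kb (SD, n = 3), against 38.7 ± 37.6 for Yap1, whose spread between lines was almost as large as its mean. In the combination the means were 43.2 ± 3.12 for Wwtr1 and 38.6 ± 37.8 for Yap1. With DMSO and with the combination alike, Yap1 was above Wwtr1 per kb in A1005 and below it in A1129 and A1471.

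Ccn1 (chromosome 3, 145646976 to 145649981, minus strand; formerly Cyr61) encodes a matricellular protein that promotes adhesion and migration. Its DMSO libraries held 63.9, 51.7 and 19.5 CPM in A1005, A1129 and A1471. With the combination it was at 112, 27.7 and 80.0 CPM. Ccn1 was thus higher in A1005 and A1471 and lower in A1129, and the groups overlapped. The log2 changes within the lines were 0.81, -0.90 and 2.03, and the fitted change of 0.70 had a standard error of 0.59 (edgeR adjusted p = 0.488 unpaired and 0.194 blocked).

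With PD173074 alone Ccn1 was close to the same level in all 3 lines, at 73.8, 63.5 and 63.9 CPM in A1005, A1129 and A1471, a log2 change of 0.57 with a standard error of 0.59 (edgeR adjusted p = 1). The line in which Ccn1 was low with DMSO, A1471, moved most, by 1.71 on the log2 scale. With Crizotinib Ccn1 was at 61.6, 37.8 and 16.5 CPM, slightly below DMSO in each line.

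Ccn2 (chromosome 10, 24595442 to 24598683, plus strand; formerly Ctgf) encodes a pro-fibrotic matricellular protein. Its DMSO libraries held 14.5, 19.1 and 2.62 CPM in A1005, A1129 and A1471. With the combination Ccn2 was at 34.8, 36.2 and 9.96 CPM. It was higher in each of the 3 lines, by 1.25, 0.92 and 1.87 on the log2 scale, although the groups overlapped because A1471 was low at every treatment. The fitted change of Ccn2 was 1.16 with a standard error of 0.90 without the block (edgeR adjusted p = 0.449) and 1.31 with a standard error of 0.23 with it (edgeR adjusted p = 9.23e-04).

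With PD173074 alone Ccn2 was at 27.9, 28.6 and 8.19 CPM in A1005, A1129 and A1471. All were above DMSO of the same line, by 0.57 to 1.59 on the log2 scale, and the edgeR adjusted p was 1 unpaired and 0.0591 in the blocked fit. With Crizotinib Ccn2 was at 12.1, 14.8 and 1.65 CPM, below DMSO in each line. Exons of Ccn2 share 665 bases with Gm15270 on the opposite strand. How the counting used strand is not given in the sources used here, but Gm15270 itself had at most 9 counts in any library.

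Ankrd1 (chromosome 19, 36111961 to 36120099, minus strand) encodes a nuclear and sarcomeric ankyrin repeat protein. It was at 4.92, 4.41 and 0.345 CPM with DMSO in A1005, A1129 and A1471, and at 5.78, 5.08 and 3.70 CPM with the combination. A1471, which had 5 counts with DMSO and 49 with the combination, differed by 3.00 on the log2 scale, against 0.23 and 0.20 in A1005 and A1129. The fitted change of 0.59 (standard error 0.97) did not pass the edgeR test (adjusted p = 0.756 unpaired and 0.219 blocked).

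Amotl2 (chromosome 9, 102716672 to 102733418, plus strand) encodes angiomotin-like 2, a junction protein that binds and restrains YAP and is itself a YAP target. It was at 30.0, 47.0 and 22.7 CPM with DMSO in A1005, A1129 and A1471. With the combination it was at 61.0, 106 and 175 CPM. Every combination library lay above every DMSO library, with the rise largest in A1471. The log2 fold change of Amotl2 was 1.78 with a standard error of 0.41 (edgeR adjusted p = 0.02 unpaired and 0.00232 blocked).

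With PD173074 alone Amotl2 was at 50.5, 69.2 and 66.6 CPM in A1005, A1129 and A1471, again with no overlap with DMSO. The change of 0.90 on the log2 scale did not pass the adjustment (edgeR adjusted p = 1 unpaired and 0.244 blocked). With Crizotinib it was at 29.9, 33.2 and 17.3 CPM, overlapping DMSO. The calls for Amotl2 and Wwtr1 in the combination stood without A1005 (edgeR adjusted p = 0.0403 and 0.0358) and were lost without either other line. Without A1129 their adjusted p-values in edgeR were 0.12 and 0.0921, without A1471 they were 0.186 and 0.145, and within the DMSO and combination libraries alone they were 0.0773 and 0.0845.

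Ccn3 (chromosome 15, 54745702 to 54754039, plus strand; formerly Nov) encodes a CCN protein with growth-restraining roles in several tissues. Its fitted change in the combination was opposite in sign to those of the other CCN genes. Its DMSO libraries held 60.1, 14.7 and 5.87 CPM in A1005, A1129 and A1471, and its combination libraries held 8.62, 2.69 and 2.41 CPM. Ccn3 was lower in each line, by -2.78, -2.39 and -1.24 on the log2 scale, while the groups overlapped because DMSO of A1471 was below the combination of A1005. The fitted change of -2.55 (standard error 1.06) had an edgeR adjusted p of 0.143 unpaired and 2.68e-04 in the blocked fit, and passed in DESeq2 without the block (adjusted p = 0.0394).

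With Crizotinib alone Ccn3 was at 87.3, 22.6 and 8.34 CPM in A1005, A1129 and A1471, higher than DMSO in each line by 0.50 to 0.62 on the log2 scale. With PD173074 it was at 17.9, 7.66 and 5.34 CPM, with log2 changes of -1.74, -0.93 and -0.13. Neither change passed the edgeR test (adjusted p = 1 for Crizotinib in both fits, and 1 and 0.129 for PD173074 without and with the block).

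Ccn4 (chromosome 15, 66891320 to 66923201, plus strand; formerly Wisp1) encodes a CCN protein first described as a Wnt-induced gene. Its DMSO libraries held 4.29, 1.45 and 11.2 CPM in A1005, A1129 and A1471. With the combination it was at 39.9, 8.52 and 19.9 CPM, and with PD173074 at 25.9, 4.58 and 28.5 CPM. Ccn4 was higher than DMSO in each line under both treatments, with overlap between the groups. In the combination the fitted change was 2.01 with a standard error of 1.04 (edgeR adjusted p = 0.238), and 2.24 with an adjusted p of 0.00186 with the block. Crizotinib libraries of Ccn4 held 2.80, 0.726 and 8.56 CPM, below DMSO in each line.

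Ccn5 (chromosome 2, 163820861 to 163833146, plus strand; formerly Wisp2) had 11, 11 and 2 counts with DMSO in A1005, A1129 and A1471. With the combination it had 1849, 399 and 106 counts, or 103, 25.0 and 7.997 CPM. These are the values it was selected on. Within the lines the rises were 120-fold (95% exact interval 66.7 to 240), 34.6-fold (19.1 to 69.8) and 57.9-fold (15.6 to 484), intervals that cover counting error only. In every line the level with the combination was far above DMSO, but the level reached was 12.9-fold higher in A1005 than in A1471.

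With PD173074 alone Ccn5 had 669, 53 and 29 counts in A1005, A1129 and A1471, or 40.4, 3.79 and 2.06 CPM. With Crizotinib alone it had 11, 6 and 0 counts, or 0.752, 0.396 and 0 CPM. The count of 0 in A1471 allows up to 3 counts, or 0.215 CPM, in that library. Ccn5 thus stood above DMSO with PD173074 in each line, and at or near the DMSO counts with Crizotinib.

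PD173074 against Crizotinib, a comparison added after the data were seen, shares no library with the comparison that Ccn5 was chosen on. The lines are the same and the combination includes PD173074, so this comparison is not independent of that choice. The p-values given for Ccn5 here are therefore a description. Ccn5 was higher with PD173074 53.8-fold in A1005 (exact interval 29.9 to 108), 9.57-fold in A1129 (4.12 to 27.3) and at least 9.57-fold in A1471, the last against the floor of 3 counts in the Crizotinib library. The groups did not overlap. The fitted log2 difference was 5.30 with a standard error of 1.58 unpaired (edgeR adjusted p = 0.98) and 4.995 with a standard error of 0.55 with the line as a block (edgeR adjusted p = 0.00173). In DESeq2 without the block it was 5.35 (adjusted p = 0.0169).

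In the same comparison 0 of the other 8 genes passed the unpaired edgeR test, beside 0% of all genes, where an unadjusted p under 0.05 was seen for 444 of 13836. In the blocked fit 4 of the 8 passed, beside a background of 4.22%. Ccn2 and Ccn4 were higher with PD173074, by 1.36 and 2.37 on the log2 scale (edgeR adjusted p = 0.011 and 0.0172). Ccn3 and Wwtr1 were lower, by -1.56 and -0.86 (edgeR adjusted p = 0.0181 and 0.00159). For Ccn1 the blocked difference was 0.95 with a standard error of 0.45 (edgeR adjusted p = 0.315).

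Set beside the reference targets, Ccn5 moved more than Ccn1 and Ccn2 in each line with PD173074 and with the combination. In the combination its log2 change exceeded that of Ccn1 by 5.88, 5.77 and 2.87 in A1005, A1129 and A1471, and that of Ccn2 by 5.44, 3.96 and 3.03. With PD173074 the excess over Ccn1 was 5.14, 1.90 and 1.30, and over Ccn2 4.41, 1.62 and 1.42. The excess was largest in A1005 for both treatments, the line in which Ccn5 moved most and Ccn1 moved by 0.81 at most. With Crizotinib the differences lay between -0.78 and 0.10. These differences use the rise that Ccn5 was chosen on and are a description. They use log2 CPM with a prior count of 2, which shrinks changes from low counts. Ccn5 in A1471 had 2 counts with DMSO and 0 with Crizotinib, so its changes in that line are understated. The changes from DMSO share the DMSO libraries.

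**Figure D2:**
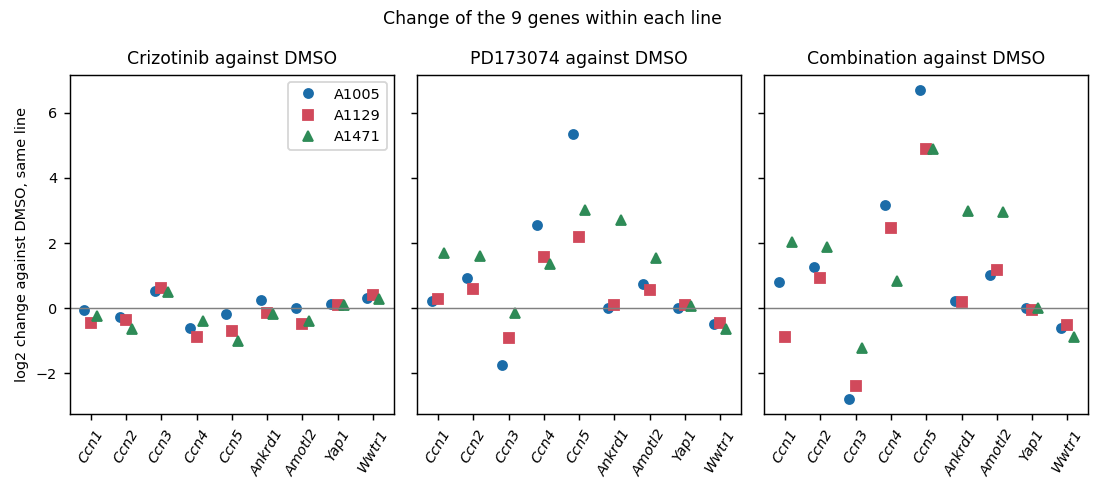
The 3 panels plot the log2 change against DMSO of the same line (log2 CPM, prior count 2) for the 9 genes under Crizotinib, PD173074 and the combination, with 1 point for each line. With the combination Ccn5 lies between 4.87 and 6.69, above all other points of the panel, Ccn1 spreads from -0.90 to 2.03, and Ccn3 and Wwtr1 lie below 0 in all 3 lines.

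Because CPM values of different genes cannot be ranked without their length, the make-up of the CCN family was computed per kb of exon. Ccn1 was the leading CCN gene in all 12 libraries, at 53.7 to 67.3% of the family sum with DMSO and 32.8 to 76.7% with the combination. Its lead was narrow in A1005 with Crizotinib, at 46.2% against 46.1% for Ccn3. With the combination it was also narrow in A1005, at 42.4% against 40.6% for Ccn5. In A1129 with the combination Ccn1 held 32.8%, against 31.1% for Ccn5 and 30.3% for Ccn2. Ccn3 held 13.4 to 35.6% of the sum with DMSO and 1.63 to 2.29% with the combination, where it ranked the lowest of the 5 genes in every line. Ccn5 held at most 0.988% with DMSO. In the combination it held 40.6, 31.1 and 8.04% in A1005, A1129 and A1471, and came next to Ccn1 in every line. In A1471 Ccn4 at 6.93% and Ccn2 at 6.74% were close behind. Ranks this close depend on the exon lengths used.

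**Figure D3:**
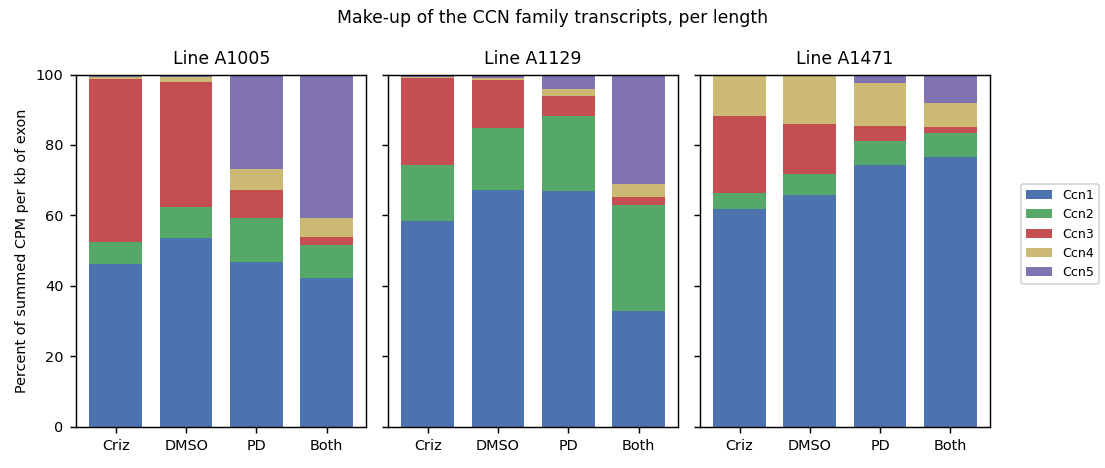
Stacked bars give the share of each CCN gene in the summed CPM per kb of exon of Ccn1 to Ccn5 (percent), with 1 bar for each library, grouped by line (Criz, Crizotinib; PD, PD173074; Both, the combination). Ccn5 is at most 0.988% with DMSO or Crizotinib and reaches 40.6%, 31.1% and 8.04% with the combination, while Ccn3 shrinks to 2.29% or less.

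The other comparisons show which treatment the changes went with. With PD173074 against DMSO 0 of the 8 genes passed the unpaired test beside 0% of all genes (307 with an unadjusted p under 0.05), and 1, Wwtr1, passed with the block beside 2.14%. DESeq2 without the block also called Wwtr1 (adjusted p = 0.00929). With Crizotinib against DMSO 0 of the 8 passed in either edgeR fit, beside 0% of all genes in both, and 1 of the 8, Wwtr1, had an unadjusted p under 0.05.

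Against Crizotinib, the combination changed Amotl2 (log2 fold change 2.09, edgeR adjusted p = 0.0106) and Wwtr1 (-1.01, adjusted p = 0.00113), 2 of the 8 genes beside a background of 13.2%. With the block 5 of the 8 passed beside 53.4%. Those 5 were Amotl2, Wwtr1, Ccn2 (1.67), Ccn3 (-2.85) and Ccn4 (2.79).

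Against PD173074, 0 of the 8 passed in the unpaired edgeR fit beside a background of 4.77%, and 0 of the 8 had an unadjusted p under 0.05. With the block 1 passed beside 39.8%, namely Ccn3, at a further -1.28 on the log2 scale (edgeR adjusted p = 0.0131). The combination libraries of Ccn1 and Ccn4 were above PD173074 in some lines and below it in others. Ccn1 was lower in A1129 only, and Ccn4 was lower in A1471 only, at 19.9 against 28.5 CPM.

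The departure from additivity asks whether the combination differs from the sum of both single changes. Of the 8 genes, 0 passed in the unpaired edgeR fit beside a background of 0.918%, with 1, Wwtr1, at an unadjusted p under 0.05. With the block 2 passed beside 16.2%. Ccn3 departed by -1.84 (edgeR adjusted p = 0.0218) and Wwtr1 by -0.49 (adjusted p = 0.032), both lower than the sum. In each case Crizotinib alone had gone with a higher level and the combination with a lower one. For Ccn1 the departure was 0.31 with a standard error of 0.63 in the blocked fit.

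A list of 22 YAP and TAZ target genes, which holds Ccn1, Ccn2, Ankrd1 and Amotl2, was examined to see whether they moved with their kind. All 22 were tested. In the combination against DMSO 6 passed the unpaired edgeR test, all of them higher, beside 14.4% of all genes in either direction. The median log2 fold change was 0.67 against 0.02 for all genes, and 17 of the 22 were above 0 against 51.3% of all genes. The 6 were Amotl2, Tgfb2 (3.11), Gadd45b (2.44), Nuak2 (2.17), Crim1 (1.10) and Ptpn14 (0.64). Tgfb2 encodes a TGF-beta ligand, Gadd45b a stress-response protein, Nuak2 a kinase that feeds back on YAP, Crim1 a membrane protein that binds BMPs and Ptpn14 a phosphatase that restrains YAP.

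Without the 4 genes already described, 5 of the 18 others passed, beside the same 14.4%, and their median was 0.64. With the block 15 of the 22 passed, 12 higher and 3 lower, beside the 54.8% of all genes. With PD173074 alone 0 of the 22 passed unpaired beside 0% of all genes, and 3 passed with the block, all higher, beside 2.14%. With Crizotinib 0 passed in either fit, beside 0% of all genes in both.

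**Figure D4:**
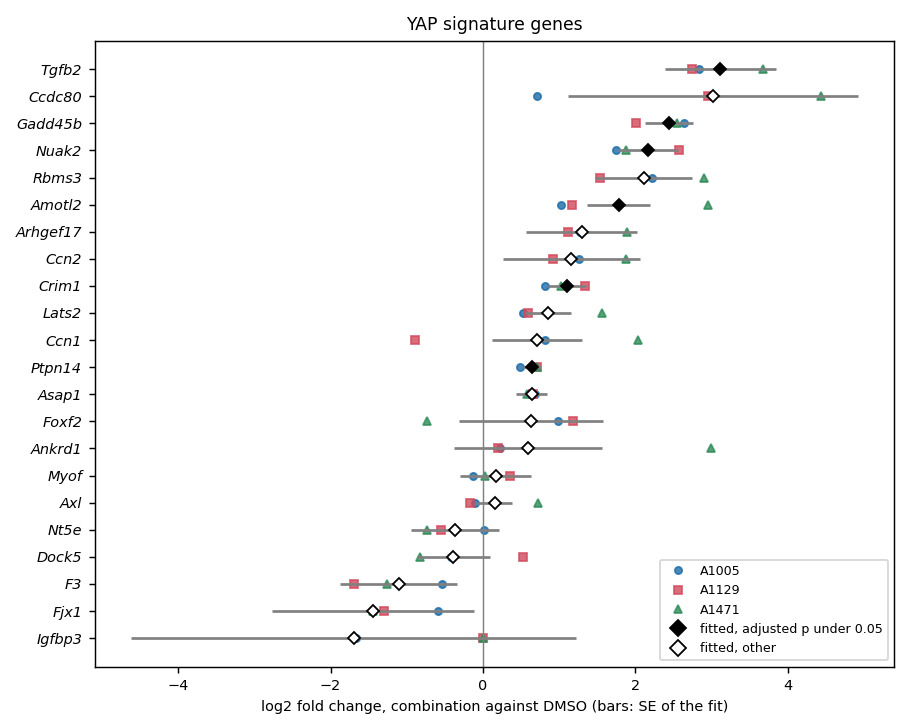
For the 22 YAP and TAZ target genes, diamonds give the fitted log2 fold change of the combination against DMSO with its standard error, filled where the adjusted p is under 0.05, and coloured points give the change within each line (log2 CPM, prior count 2). The 6 filled diamonds all lie to the right of 0, and Ccn1 and Ankrd1 show points of the 3 lines that lie far apart.

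Of 28 Hippo pathway genes, 26 were tested and 3 passed in the combination against DMSO, a share no higher than the 14.4% of all genes. Ptpn14 and Vgll4, a TEAD-binding competitor of YAP (1.24, edgeR adjusted p = 0.0155), were higher, and Mob1a, a co-factor of the Lats kinases (-0.41, adjusted p = 0.0332), was lower. The median over the 26 was 0.07. With the block 16 passed, 12 higher and 4 lower, beside 54.8% of all genes, so neither count is a result about the pathway. The TEAD genes, whose products bind YAP and TAZ on DNA, had log2 changes of 0.01 for Tead1, 1.06 for Tead2, 1.60 for Tead3 and -0.42 for Tead4. The kinase genes had changes of -0.21 for Lats1 and 0.85 for Lats2. None of these 6 passed the unpaired edgeR test, and Tead2, Tead3 and Lats2 passed with the block (adjusted p = 0.00572, 0.00115 and 0.0069).

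Ccn1 and Ccn2 also respond to serum response factor (SRF) with its MRTF co-activators, so 15 genes of that pathway were examined, of which 11 were tested and 3 passed, beside 14.4% of all genes. Mrtfb, an SRF co-activator (0.76, edgeR adjusted p = 0.0236), and Cnn2, an actin-binding calponin (1.66, adjusted p = 0.00282), were higher, and Fhl2, a LIM domain protein (-1.02, adjusted p = 0.0305), was lower. The median was 0.49, and 8 passed with the block, 7 higher and 1 lower, beside 54.8% of all genes. The smooth muscle genes Acta2, Tagln and Cnn1 had at most 10 counts in any library. Myl9, also not tested, had at most 50 counts, and averaged 0.022 CPM with DMSO and 0.926 ± 1.60 CPM (SD) with the combination.

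Markers of other cell types were summed over each list as CPM. The fibroblast list (Pdgfra, Dcn, Lum and Thy1) ran from 99.6 to 175 with DMSO and 102 to 209 with Crizotinib. It ran from 163 to 325 with PD173074 and 151 to 394 with the combination, and the ranges overlapped. Its rise lay in Pdgfra and Dcn, while Thy1 had 0 counts in all 12 libraries and Lum at most 1. With the combination against DMSO, Pdgfra changed by 0.56, 0.90 and 1.62 on the log2 scale in A1005, A1129 and A1471. In the same order Dcn changed by 1.70, 2.04 and 1.497, Ccn5 by 6.69, 4.87 and 4.90, and Ccn4 by 3.17, 2.45 and 0.82. Pdgfra thus rose least in A1005, where Ccn5 and Ccn4 rose most. Dcn rose most in A1129 and, like Ccn4, least in A1471. Whether Pdgfra and Dcn had a part in the CCN changes was not tested. The leukocyte list ran from 4.34 to 31.3 with DMSO and 8.21 to 41.9 with the combination. Ptprc and Cd68 made up this sum, with up to 339 and 439 counts, while Adgre1 had 1 count at most. With the combination Cd68 was higher in each line, by 0.46, 1.34 and 0.65 on the log2 scale in A1005, A1129 and A1471. Ptprc changed by 0.36, -0.98 and -1.02 in the same order, and had 0 counts in its lowest library. The part of these transcripts in the results was not tested. Endothelial, adipocyte and mural cell lists summed to at most 0.751, 0.0715 and 3.89 CPM in any library.

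The genes whose profile was most like that of Ccn5, Ccn1 and Ccn2 were sought over the 12 libraries, as Pearson's r of log2 CPM centred within each line, among 9611 genes that averaged 3 or more log2 CPM. The 12 points share 3 lines and 4 treatments and are not independent, so r is a description. For Ccn5 they were Samhd1 (0.99), Irf1 (0.983) and Sptlc2 (0.983). For Ccn2 they were Gbp2 (0.994), C1s1 (0.993) and Gbp9 (0.988), and for Ccn1 Col5a3 (0.983), Ap2s1 (0.959) and N6amt1 (0.939). On the same measure Ccn5 had an r of 0.932 with Ccn4, 0.918 with Ccn2, 0.855 with Amotl2, 0.551 with Ankrd1 and 0.548 with Ccn1. Its r was -0.95 with Ccn3, -0.927 with Wwtr1 and -0.515 with Yap1.

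The high level of Yap1 in A1005 was followed to its neighbours on chromosome 9, a look that was taken after the values of Yap1 were seen. Over the 4 treatments Yap1 was 2.27 ± 0.05 (SD) log2 units higher in A1005 than the mean of A1129 and A1471. Of 14 other tested genes whose start lies within 1500 kb, 13 were higher in A1005 by more than 1 log2 unit, beside 13.4% of all genes tested. The apoptosis inhibitor genes Birc2 and Birc3, 168 and 131 kb from Yap1, differed by 2.22 and 2.81, Tmem123 by 2.15 and Dcun1d5, 820 kb away, by 2.32. The differences of the 13 ran from 1.01 for Cfap300 to 5.97 for Mmp13, with Mmp3 at 5.15, Mmp10 at 4.44 and Arhgap42 at 3.26, so they were not uniform. The exception was Cep126, at -1.96. Cep126, Mmp1a, Mmp1b and Gm45494 were low in every line, averaging at most 1.49, -0.29, 0.75 and 0.41 log2 CPM. These values describe 1 line against 2 others, and DNA was not measured.

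**Figure D5:**
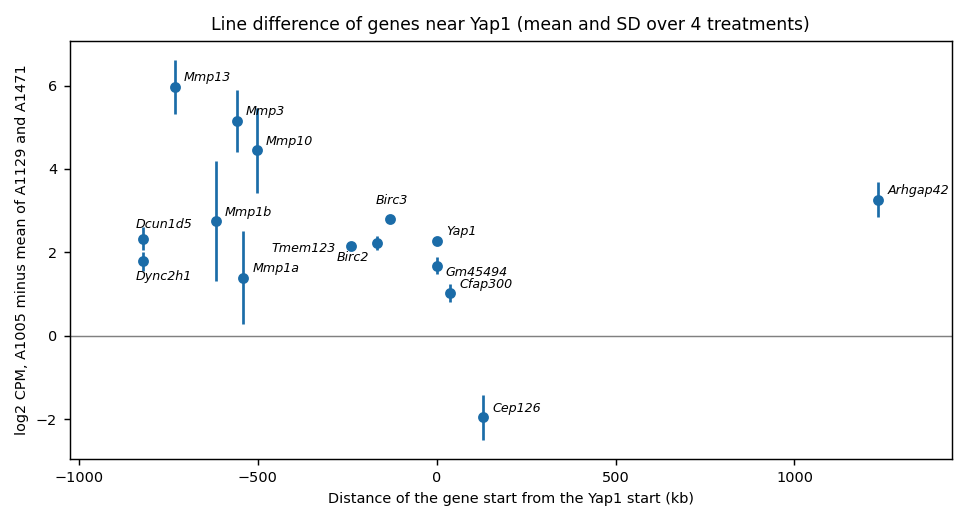
Each point is a tested gene within 1500 kb of Yap1, plotted by the distance of its start from that of Yap1 (kb) and by its log2 CPM in A1005 minus the mean of A1129 and A1471, as mean and SD over the 4 treatments. Yap1 lies at 2.27 and 13 of the 14 neighbours lie above 1, Cep126 being the exception at -1.96.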

How the data were processed

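The authors aligned NextSeq500 reads of the 12 libraries to mm10 with STAR, per the paper's methods, and deposited raw counts per Ensembl gene. The submitters' processing notes also name bcl2fastq and HTSeq, with no versions. The annotation release and the use of strand are not given in the sources used here. From the deposited counts, genes were filtered with filterByExpr (minimum count 10, total 15), normalised by TMM, and treatments were compared by edgeR's quasi-likelihood F-test (version 4.0.16, R 4.3.3, limma 3.58.1) in 1 fit of treatment over 12 libraries, Benjamini-Hochberg adjusted over 13836 genes at a threshold of 0.05, unpaired as in the study. Standard errors are the size of the log2 fold change over the square root of F. CPM uses the TMM-scaled library size, and log2 CPM used a prior count of 2.

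The 12 libraries differ pairwise beyond counting noise. The libraries pair by cell line, which the labels give: deviations from the treatment means correlated at 0.871 on average for the same line (18 pairs, lowest 0.766) and at -0.422 for different lines (36 pairs). The 3 lines are separate tumours. Intervals and the floor of 3 counts cover counting error only, at a confidence level of 95%, and reads have no molecular identifiers.

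The members and lists were chosen with earlier results of these data known. The named genes were the 9 members, list genes past the threshold in the combination against DMSO, Tead1 to Tead4, Lats1, Lats2, Dusp6, Spry4, Etv5, markers above 1 CPM, and the 3 genes most like Ccn5, Ccn1 and Ccn2. Genes named beyond these (the Yap1 neighbours, Gm15270, Egr1, Phlda1, and markers or SRF genes near 0) were added after their values were seen. Counting over the 8 members other than Ccn5 in every comparison, and the comparison of PD173074 with Crizotinib, were decided after the data were seen.

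Coordinates and exon lengths are from GENCODE vM21 (GRCm38), which matches mm10, and promoters from RefSeq GRCm38.p6. The tests were checked on simulated counts, where a minimum recovery of changed genes was required of the blocked edgeR fit only. That check set no limit on the false calls of any fit. Alternatives were the line as a block, DESeq2 1.42.0, its size factors, total counts alone, no filter, 10 counts in every library, only the libraries compared, a prior count of 0.5, an added minimum log2 change of 1.5 and leaving out each line. Python 3.11.15, pandas 2.3.3, scipy 1.17.1 and matplotlib 3.10.9 were used for tables and plots.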

Additional observations from a re-analysis of the deposited data

How the results depend on the processing

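Several calls among these genes depend on whether libraries are paired by line and on the tool. With the line as a block, members passing in place of the unpaired counts were 5 for the combination against DMSO, 1 for PD173074 against DMSO, 5 for the combination against Crizotinib, 1 for the combination against PD173074 2 for the departure from additivity and 4 for PD173074 against Crizotinib, and the list counts were 15 YAP target and 16 Hippo genes. DESeq2 gave 3 for the combination against DMSO, 1 for PD173074 against DMSO, 4 for the combination against Crizotinib and 7 Hippo genes. Only the libraries compared left 0 members in the combination against DMSO, 1 against Crizotinib, 3 YAP target genes and 0 Hippo genes, fewer samples being fitted. A minimum log2 change of 1.5 left 1 member in the combination against DMSO, 1 against Crizotinib and 0 Hippo genes, and no filter left 1 Hippo gene. Leaving out a line gave 0 to 2 members in the combination against DMSO, 0 to 3 against Crizotinib, 0 to 5 YAP target genes and 0 to 4 Hippo genes, the lowest counts without A1471. Without A1129 these counts were 0, 1, 1 and 0. In these fits the spread is pooled over the remaining libraries. The share of all genes that passed is given only for the unpaired and blocked edgeR fits. Counts under the other settings have no such background beside them and are not results about these genes. Signs changed for small effects only. Yap1 in the combination against DMSO was 0.020 in DESeq2, 0.018 with its size factors, 0.041 with total counts and 0.027 with at least 10 counts in every library, and against PD173074 it was 0.021 with total counts. With a line left out, Ankrd1 with Crizotinib ran from -0.16 to 0.23, and in the combination against PD173074 Ccn1 ran from -0.23 to 0.48 and Ccn4 from -0.21 to 0.64, each lowest without A1005. The rise of Ccn5 with PD173074 against DMSO, 4.74 on the log2 scale, was 2.74 without A1005. The causes were not tested. At 3 lines, and with single-digit counts for Ccn5 and Ankrd1 in A1471, the size of their rises there is known only within wide counting intervals.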
